A study of Saccharomyces cerevisiae with 16 samples.

Results

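Ribosome footprints of sporulating budding yeast without DBP1 were set against those of wild-type (WT) cells, 3 h after transfer to sporulation medium. The genes described are the 5304 of 6679 listed genes whose mean over the 4 footprint libraries of 3 h was at least 5 RPKM, that is, reads scaled to gene length and to the total of the library. Just above that limit lay KDX1 and ROG3, both at 5.01 RPKM, and just below it lay ATR1 at 4.99 RPKM and YDL196W at 4.98 RPKM. Deletion cells had the DBP1 reading frame removed with Cas9, leaving no marker, and WT cells kept it. Both are of the SK1 background, which sporulates fast and synchronously, and the labels give 1 strain number for each genotype. Cells of both genotypes were put through meiosis in the same way and met 100 µM cycloheximide, which arrests elongating ribosomes, for 1 min before harvest. The 4 libraries, out of 16 in the study, are deletion replicates 2 and 4 and WT replicates 3 and 4. Matching libraries of mRNA fragments and of cells taken at 6 h are cited only beside the footprints of 3 h.

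DBP1 encodes a DEAD-box RNA helicase, a protein that opens RNA structure at the cost of ATP. Its paralogue Ded1 helps the small ribosomal subunit travel along structured 5′ leaders to the start codon, and Dbp1 overlaps with it in function. A footprint is the stretch of mRNA shielded by a ribosome, so footprints over a gene count the ribosomes on its mRNA. A change in footprints can come with a change in the mRNA, with a change in ribosomes per mRNA, or with both.

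Library totals, worked back from the spacing of RPKM values, were 6953327 and 5272019 reads in the deletion libraries, against 4570778 and 6166688 reads in the WT libraries. The 66 genes at 5 to 6 RPKM held a median of 39 reads per library, and the median gene tested stood at 53.2 RPKM. The labels do not say whether replicates are separate cultures, and the p-values here cover the spread among libraries only, which could be technical. The 9 markers of sporulating cells, which run from the inducer IME1 to NDT80, were all present and summed to 13757 and 11659 RPKM in the deletion, against 11788 and 11628 RPKM in WT. The 15 haploid markers summed to 160 and 126 RPKM in the deletion and to 161 and 153 RPKM in WT, with STE2 and MF(ALPHA)2 at 0 in some libraries. On a line through all genes that runs from 0 at the mean of the WT 3 h footprints to 1 at that of the WT 6 h footprints, the deletion libraries lay at 0.0132 and 0.0014 and the WT libraries at -0.0082 and 0.0082. The mRNA library labelled deletion 3 h replicate 2 lay at 0.905 on the same kind of line for mRNA, which goes against its time label. Values of mRNA in the deletion at 3 h are therefore given from replicate 4 alone, at 0.0506, with no test.

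The loss of DBP1 itself was plain in both deletion libraries. DBP1 held 1.12 and 1.06 RPKM of footprints in the deletion (14 and 10 reads), against 416.5 and 429 RPKM in WT (3421 and 4757 reads). Footprints of DBP1 fell by 7.67 on the log2 scale (SE 0.15; limma, Benjamini-Hochberg adjusted p = 9.8e-08), and by reads the mean level was 388-fold higher in WT. Its mRNA stood at 0.633 RPKM in deletion replicate 4, against 156 and 161 RPKM in WT. The groups thus lie far apart in both kinds of library, and the labels of all 4 footprint libraries hold for the targeted gene. As its reading frame was removed, this fall was set by the design and serves as a check of the labels only. DBP1 also passed the filter of 5 RPKM through the WT libraries alone.

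One other gene passed the threshold. YPL119C-A, a short frame of unknown role just 3′ of DBP1 and read from the same strand, held 45.0 and 28.3 RPKM in the deletion (63 and 30 reads) and 0 in both WT libraries. Footprints of YPL119C-A rose to at least 27.2-fold above WT, taking a floor of 3 reads over the WT group (fitted log2 change 5.20, SE 0.31, limma, Benjamini-Hochberg adjusted p = 4.2e-04). The mRNA signal over YPL119C-A was not apart: it was 191 RPKM in deletion replicate 4, against 203 and 169 RPKM in WT. The reads over this frame thus went with the genotype in footprints and not in mRNA. The deletion takes away the adjacent DBP1 reading frame and, with it, the source of the Dbp1 protein. Whether the footprints over YPL119C-A go with the edit of the locus or with the lack of Dbp1 was not tested. With 0 reads in WT, the fitted size depends on the value added before taking logs. YPL119C-A also passed the filter of 5 RPKM through the deletion libraries alone.

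The genes around the cut showed no comparable shift. MRP51, for a protein of the mitochondrial ribosome, had 41.8 and 51.3 RPKM in the deletion, against 59.4 and 50.7 RPKM in WT, a log2 change of -0.24 (SE 0.19, 95% interval -0.68 to 0.20). VPS30, for a subunit of a lipid kinase complex of autophagy, had 45.3 and 56.1 RPKM in the deletion and 56.2 and 53.8 RPKM in WT, a log2 change of -0.12 (SE 0.15). For both genes the deletion and WT libraries overlapped. Of the farther neighbours, chosen by position, MEI5, IDI1 and HOS3 had log2 changes of 0.11, 0.12 and 0.05. TFB2, for a subunit of a general transcription factor, stood at 4.94 and 4.22 RPKM in the deletion, against 6.63 and 9.83 RPKM in WT. Its log2 change of -0.71 (SE 0.33) did not pass the threshold, and TFB2 reached the filter of 5 RPKM only through WT.

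**Figure D1:**
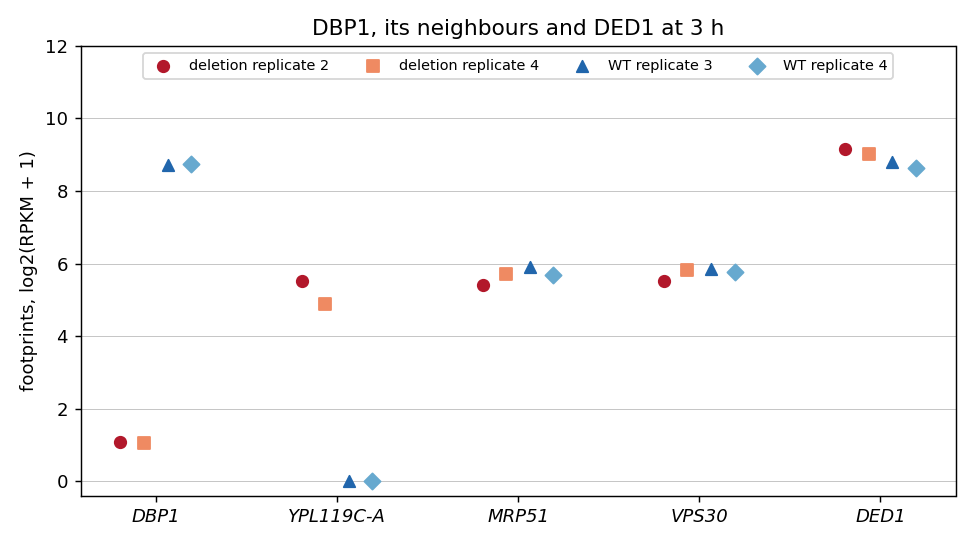
Footprint levels at 3 h, as log2 of RPKM plus 1, of DBP1, YPL119C-A, MRP51, VPS30 and DED1, with 1 point per library (red and orange, deletion; blue, WT). DBP1 is at 1.12 and 1.06 RPKM in the deletion and at 416.5 and 429 RPKM in WT, YPL119C-A is at 0 in WT alone, and the other 3 genes lie within 1 log2 unit between the groups.

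DED1, which encodes the helicase most like Dbp1, had 570 and 517 RPKM of footprints in the deletion, against 446 and 396 RPKM in WT. Both deletion libraries lay above both WT libraries. The log2 change of 0.37 (SE 0.20, 95% interval -0.09 to 0.83) did not pass (limma, Benjamini-Hochberg adjusted p = 1.00). DED1 mRNA was 64.8 RPKM in deletion replicate 4, within the 61.0 and 69.1 RPKM of WT. At 6 h DED1 footprints were 165 and 107 RPKM in the deletion and 103 and 96.0 RPKM in WT, a log2 change of 0.42 that did not pass either.

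Across all 5304 genes limma called 2 at a Benjamini-Hochberg adjusted p of 0.05, which is 0.0377%. One of them, YPL119C-A, was higher (0.0189%) and the other, the deleted DBP1 itself, was lower (0.0189%). An unadjusted p under 0.05 was reached by 86 genes. The 95% interval of the log2 change lay within 1 in either direction for 91.3% of genes, its median width being 0.42 to each side. Smaller changes could not be told apart from the spread. These intervals are not adjusted for the number of genes, and the adjusted threshold asks for more. YLR162W, at a log2 change of 1.25, and ARN2, at -2.08, did not pass it. All genes together had a median log2 change of 0.03. As RPKM is scaled to the total of each library, a change shared by all genes would not show in these values.

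How far the 2 deletion libraries repeated each other was read from pairs that share no library. Deletion replicate 2 minus WT replicate 3 was set against deletion replicate 4 minus WT replicate 4, and the other way round. In the first pairing 44.4% of the 5304 genes moved in the same direction, and in the second 46.4%. The correlation of the log2 differences across genes was -0.06 and -0.02, a description over genes that share libraries and depth. A higher level did not come with a higher share: at 100 RPKM or more (1646 genes) it was 42.0% and 43.6%, against 50.5% and 50.4% at 5 to 20 RPKM (1064 genes). Genes at least 2-fold apart in the same direction numbered 1 higher and 2 lower in each pairing, and 12 genes in each were 2-fold apart in opposite directions.

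The deletion libraries were also farther from each other than the WT libraries were. Their log2 gap was at least 1 for 188 genes (3.54%), against 25 genes (0.471%) between the WT libraries, while the median gap was 0.17 and 0.14. Across genes, log2 levels correlated at 0.971 between the deletion libraries and at 0.989 between the WT libraries. Deletion replicate 2 correlated at 0.976 and 0.974 with the WT libraries, and deletion replicate 4 at 0.989 and 0.985. Replicate 2 is thus the library that stands apart, and the deletion libraries are given separately for each gene list below.

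**Figure D2:**
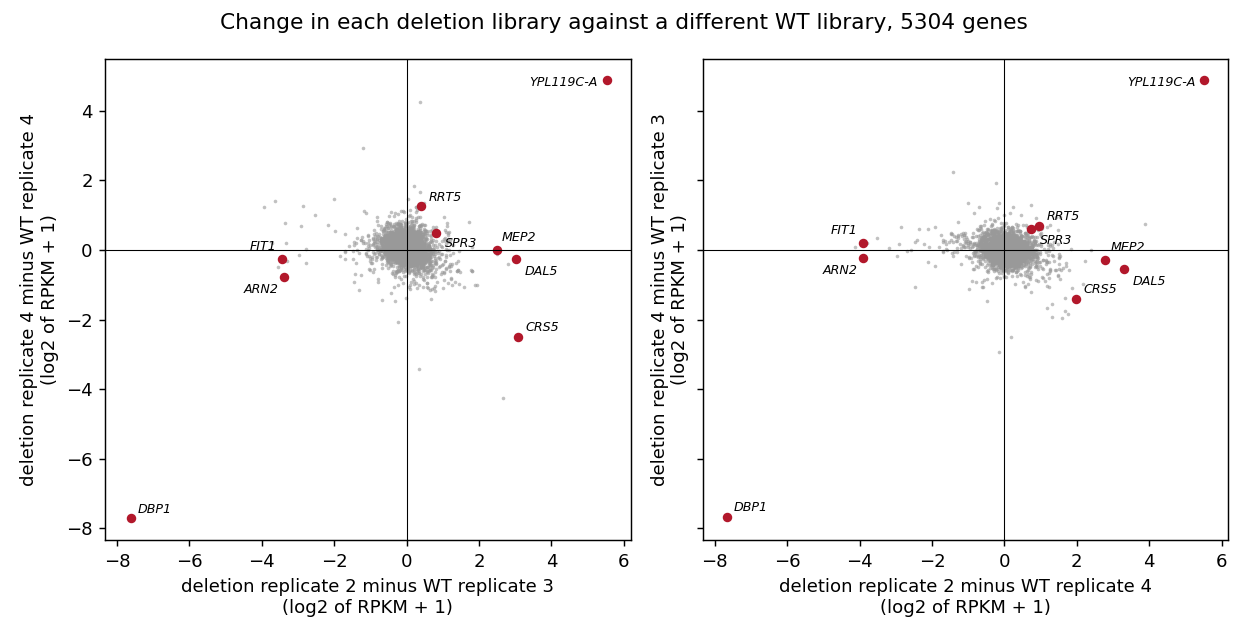
Log2 difference of each of the 5304 genes between a deletion library and a WT library, with deletion replicate 2 on the horizontal and deletion replicate 4 on the vertical axis; each panel uses a different WT library on each axis. DBP1 and YPL119C-A lie at opposite corners, and the iron gene FIT1 and the nitrogen genes DAL5 and MEP2 lie far out along the horizontal axis alone.

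Both deletion libraries lay above both WT libraries for 969 genes (18.3%) and below both for 526 genes (9.92%). With libraries rescaled by the median ratio these counts were 835 (15.7%) and 644 (12.1%). With 2 libraries per group such orders also arise without any effect of the deletion. They are therefore not counts of genes moved by it. At least 1.5-fold between every deletion and every WT library, in RPKM plus 1, were 4 genes on the higher side, among them SPS4, and 4 on the lower side, among them POP4 and YAL065C. These counts were 8 and 6 with 0.1 RPKM added in place of 1, and 3 and 2 with 5 RPKM added. SPS4, a gene of the middle of sporulation, had 90.5 and 73.6 RPKM in the deletion, against 44.0 and 37.6 RPKM in WT. POP4, for a subunit of RNase P and RNase MRP, had 3.68 and 3.64 RPKM in the deletion, against 7.84 and 6.23 RPKM in WT. As its deletion libraries lay below 5 RPKM, POP4 passed the filter only through WT. SPS4, POP4 and YAL065C were singled out after their values were seen, and none passed the threshold.

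The 10 genes with the smallest p on the higher side, among non-overlapping genes of at least 20 RPKM, include 6 members of the middle and late sporulation lists described below, and none passed (limma, Benjamini-Hochberg adjusted p = 1.00 for each). Those lists hold 39 and 16 of the 5304 genes tested. They were chosen with earlier results of these data known, so the count of 6 is a description only. LDS2, for a protein of lipid droplets and the spore wall, had 41.8 and 37.1 RPKM in the deletion, against 24.8 and 23.1 RPKM in WT (log2 change 0.69, SE 0.13). SPR3, a septin of sporulating cells, had 41.1 and 35.0 RPKM in the deletion, against 22.9 and 24.5 RPKM in WT (0.66, SE 0.13). LDS1, a relative of LDS2, had 52.4 and 50.7 RPKM in the deletion and 30.2 and 36.3 RPKM in WT (0.62, SE 0.14). For each of these 3 genes the libraries of a genotype lay closer to each other than to the other genotype. SPS22 and SPS2 are a pair of related spore wall genes. SPS22 had 54.0 and 52.3 RPKM in the deletion, against 38.2 and 35.4 RPKM in WT (0.52). SPS2 had 57.1 and 59.9 RPKM in the deletion, against 46.0 and 30.3 RPKM in WT (0.63), and its log2 change was 0.34 without WT replicate 4 and 0.93 without WT replicate 3. SPR1, for a glucanase of the spore wall, had 43.8 and 49.1 RPKM in the deletion, against 33.7 and 32.4 RPKM in WT (0.48). In SPS2 the WT libraries were farther apart than in SPS22 and SPR1. RRT5 reached 79.8 and 98.2 RPKM in the deletion, against 60.0 and 40.7 RPKM in WT (0.83, SE 0.21). YLR162W, of unknown function, had the widest difference of the 10, with 90.2 and 53.0 RPKM in the deletion and 26.9 and 30.3 RPKM in WT (1.25, SE 0.33). YPR027C and YML116W-A complete the 10, at 0.52 and 0.54.

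Beside those footprint values stand the mRNA values of the same genes, which differed widely between the WT libraries. LDS2 mRNA was 109 RPKM in deletion replicate 4, against 58.0 and 25.1 RPKM in WT replicates 3 and 4. SPR3 mRNA was 303 RPKM in deletion replicate 4, against 169 and 71.3 RPKM in WT. SPS2 mRNA was 354 RPKM in deletion replicate 4, against 188 and 66.8 RPKM in WT. In all 3 genes the one deletion mRNA library lay above both WT libraries, and WT replicate 3 lay more than 2-fold above WT replicate 4. By 6 h, LDS2 footprints stood at 3490 and 3871 RPKM in the deletion and at 3571 and 4035 RPKM in WT, so the difference of 3 h is small beside the course of sporulation. Not all of the 10 genes had that pattern: YLR162W mRNA was 8.45 RPKM in deletion replicate 4 and 8.26 and 12.3 RPKM in WT.

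On the lower side, none of the genes after DBP1 passed (limma, Benjamini-Hochberg adjusted p = 1.00). YPS6, for a protease anchored at the cell surface, had 12.7 and 19.7 RPKM in the deletion, against 26.7 and 30.1 RPKM in WT (log2 change -0.80, SE 0.22). PRY2, for a secreted sterol-binding protein, had 10.9 and 22.7 RPKM in the deletion, against 31.7 and 44.1 RPKM in WT (-1.20, SE 0.35). SVS1, for a cell wall protein, had 11.7 and 23.8 RPKM in the deletion and 30.5 and 54.2 RPKM in WT (-1.23, SE 0.42). In these 3 genes deletion replicate 2 was the lowest of the 4 libraries. MNC1 and YGL194C-A, with log2 changes of -0.89 and -0.84, were lowest in deletion replicate 4 instead. HIS6, for an enzyme of histidine synthesis, had 23.5 and 19.6 RPKM in the deletion, against 27.7 and 34.4 RPKM in WT (-0.50). MCO10, for a small mitochondrial protein, and YMR119W-A had -0.35 and -0.54. ARN2, for a siderophore transporter, had 1.55 and 21.6 RPKM in the deletion and 25.6 and 37.5 RPKM in WT. Its log2 change of -2.08 (SE 0.82) rests mostly on replicate 2. In mRNA, deletion replicate 4 lay below both WT libraries for YPS6 (39.5 RPKM against 55.0 and 61.9 RPKM), PRY2, SVS1 and ARN2. It lay above both for YGL194C-A, HIS6, MCO10 and YMR119W-A, and between them for MNC1. At 6 h footprint log2 changes were -0.72 for YPS6 and -1.02 for MNC1, but above 0 for PRY2, YGL194C-A and HIS6.

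Gene lists are described by counts and medians, read beside those of all genes tested, of which 57.1% had a log2 change above 0. No member of any list described below passed the threshold. Middle meiotic genes, switched on by the transcription factor Ndt80 for the meiotic divisions and spore formation, were higher in 32 of the 39 tested of 46 listed, with a median log2 change of 0.28. Both deletion libraries lay above both WT libraries for 22 of the 39 (56.4%), beside 18.3% of all genes. That share is not particular to the middle genes. It was 56% for DEAD-box, 53.8% for elongation and termination, 52.9% for proteasome, 50% for late sporulation and 45.5% for ribosome biogenesis genes. The middle gene median was 0.38 in deletion replicate 2 (34 genes above the WT mean) and 0.24 in replicate 4 (28 genes), while the WT libraries differed by 0.11. Besides SPR3 and SPS22, the members of smallest p were OSW1, for an outer spore wall protein, at 11.7 and 10.3 RPKM in the deletion and 5.93 and 7.32 RPKM in WT, and GIP1, a meiotic partner of a protein phosphatase. GIP1 had 7.00 and 7.64 RPKM in the deletion, against 5.13 and 4.38 RPKM in WT. Its WT mean of 4.76 RPKM was below the filter of 5 RPKM. GIP1, which is counted among the 22, was thus tested only through its deletion libraries.

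Late sporulation and spore wall genes resembled them, with 12 of 16 higher and a median log2 change of 0.23, at 0.28 and 0.27 in deletion replicates 2 and 4. GAS2, for an enzyme that builds spore wall glucan, had 12.6 and 16.8 RPKM in the deletion, against 10.3 and 6.65 RPKM in WT (log2 change 0.74, SE 0.21). DTR1, for a transporter of dityrosine, had 16.4 and 17.6 RPKM in the deletion, against 10.0 and 13.1 RPKM in WT (0.53, SE 0.16). Both lists were low at 3 h: the middle genes' median was 40.1 and 36.9 RPKM in the deletion and 30.5 and 24.5 RPKM in WT, against 1707 and 1641 RPKM in the WT 6 h libraries. In mRNA, deletion replicate 4 had 38 of the 39 middle genes above the WT mean, with a median log2 difference of 1.02, and a late gene median of 1.01. How much of the footprint difference goes with the mRNA was not tested, and in bulk samples more cells that have begun these genes and a higher level per cell cannot be told apart. Against WT replicate 3 alone the middle median was 0.21, and it was 0.14 over genes of at least 20 RPKM.

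**Figure D3:**
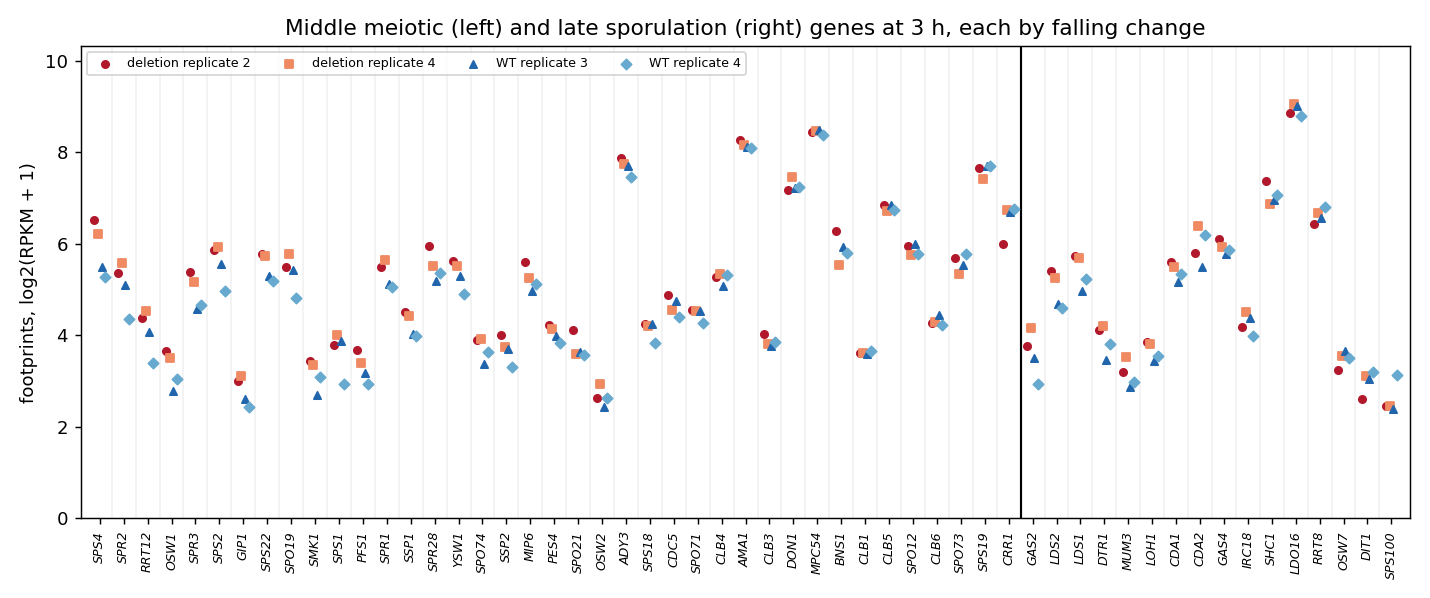
Footprint levels at 3 h, as log2 of RPKM plus 1, of the 39 middle meiotic and 16 late sporulation genes, each set ordered by its log2 change, with 1 point per library (red and orange, deletion; blue, WT). Deletion points lie above WT points for 22 of the middle (56.4%) and 8 of the late genes (50%), beside 18.3% of all genes tested. Log2 changes reach up to 0.99 for the middle genes.

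Early meiotic genes, which act in recombination and chromosome pairing and had a median log2 change of -1.72 in WT footprints of 6 h against 3 h, were higher in 33 of 39, with a median log2 change of 0.11 (-0.049 with the replicate block). That came from deletion replicate 2, where 37 of 39 lay above the WT mean (median 0.20), while replicate 4 had 19 of 39 (median -0.01). NDT80 itself, the switch to the middle genes, had 75.8 and 44.6 RPKM in the deletion, against 38.2 and 48.0 RPKM in WT, so that only deletion replicate 2 lay outside the WT range. REC114, for a factor of meiotic DNA breaks, had 523 and 461 RPKM in the deletion and 455 and 400 RPKM in WT. HED1, which restrains a mitotic recombinase in meiosis, had 1621 and 1482 RPKM in the deletion and 1401 and 1291 RPKM in WT. MAM1, for a kinetochore protein of the first division, had 25.5 and 17.6 RPKM in the deletion, against 19.0 and 17.4 RPKM in WT. None of the 4 passed.

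The DEAD-box list holds 25 helicases other than Dbp1, of which 22 were higher, and the median log2 change was 0.21. Both deletion libraries lay above both WT libraries for 14 of 25 (56%) and below both for 0, beside 18.3% and 9.92% of all genes. The medians were 0.26 and 0.27 in deletion replicates 2 and 4, and the WT libraries differed by 0.17. After DED1 the members of smallest p were DBP3, DBP6 and DRS1, which act in assembly of the large ribosomal subunit. DBP3 had 9.59 and 9.77 RPKM in the deletion, against 8.09 and 7.18 RPKM in WT (0.31), and DRS1 had 8.85 and 7.96 RPKM in the deletion, against 7.88 and 4.66 RPKM in WT (0.41). DBP6 had 22.0 and 18.2 RPKM in the deletion and 17.4 and 14.5 RPKM in WT (0.32). Without WT replicate 4 the median of the list was 0.08, and without WT replicate 3 it was 0.39, so its size depends on which WT library is used. In mRNA, deletion replicate 4 had 17 of the 25 above the WT mean, with a median of 0.13. At 6 h the footprint medians of the list were 0.34 and -0.06 in deletion replicates 2 and 4.

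Translation initiation factors, the proteins that Ded1 and Dbp1 work beside, were higher in 21 of 27, with a median log2 change of 0.06. In deletion replicate 2 the median was 0.01 and in replicate 4 it was 0.12, while the WT libraries differed by 0.23 and the median was -0.05 without WT replicate 4. TIF5, for the factor that triggers GTP hydrolysis at the start codon, had 181 and 180 RPKM in the deletion, against 162 and 122 RPKM in WT (0.35, SE 0.20, 95% interval -0.11 to 0.82). RPG1, for a subunit of the factor that coats the small ribosomal subunit, had 47.1 and 52.4 RPKM in the deletion, against 45.7 and 38.6 RPKM in WT. FUN12, for the GTPase of subunit joining, and TIF4631, for a scaffold that binds Ded1, had log2 changes of 0.21 and 0.16. Genes with known upstream reading frames, where scanning bears on the main frame, had 13 of 21 higher and a median of 0.02, at 0.02 and 0.08 in deletion replicates 2 and 4.

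Elongation and termination factors were higher in 11 of 13, with a median log2 change of 0.15, alike in deletion replicates 2 (0.14) and 4 (0.11). YEF3, for the fungal elongation factor that frees the exit site, had 160 and 142 RPKM in the deletion, against 126 and 88.5 RPKM in WT (0.51, SE 0.24). EFB1, for the exchange factor of the tRNA-delivering GTPase, had 489 and 427 RPKM in the deletion and 410 and 348 RPKM in WT. EFT2 and TEF1 (0.40 and 0.34) each have a near-identical copy in the genome, so their reads may be shared between copies. Ribosome biogenesis genes were higher in 51 of 55, with a median of 0.21. The medians were 0.25 and 0.21 in deletion replicates 2 and 4, but the WT libraries differed by 0.38 and the list median was 0.03 without WT replicate 4. In mRNA, deletion replicate 4 had 47 of the 55 above the WT mean, with a median of 0.22. For elongation and termination factors it had 8 of 13 and a median of 0.04. At 6 h the biogenesis footprint medians were 0.46 and -0.21 in deletion replicates 2 and 4. RRP8, for a methylase of ribosomal RNA, had 12.8 and 9.31 RPKM in the deletion, against 5.66 and 5.93 RPKM in WT (0.81, SE 0.25). NOP56, UTP18 and NOP7, which act in small RNA-guided modification and in assembly of the small and the large subunit, had 0.55, 0.37 and 0.60.

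Cytosolic ribosomal protein genes went opposite ways in the deletion libraries. Of 134 tested, 23 lay above the WT mean in deletion replicate 2, with a median log2 difference of -0.26, and 132 in replicate 4, with a median of 0.41. The WT libraries differed by 0.07, so both deletion libraries lay outside the WT range, on either side of it. The fitted median of 0.08 is thus a mean of unlike libraries. Both deletion libraries lay above both WT libraries for 14 of the 134 (10.4%), beside 18.3% of all genes. In mRNA, deletion replicate 4 also lay higher, with 130 of the 134 genes above the WT mean and a median of 0.39. RPL18B, of the 4 members of smallest p, was alike in both, with 96.0 and 93.0 RPKM in the deletion, against 69.3 and 69.8 RPKM in WT (0.44, SE 0.18). RPL1A, RPS30B and RPL37B had log2 changes of 0.44, 0.35 and 0.37. These 4 members are among the 14 above both WT libraries and do not stand for the list. Most of these genes have a close copy, and reads may be split between copies.

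Mitochondrial ribosomal protein genes were lower in 55 of 71, with a median log2 change of -0.10, which came from deletion replicate 2 (median -0.24, with 4 of 71 above the WT mean) and not from replicate 4 (0.05, with 51 of 71 above). The WT libraries differed by 0.30, and the median was 0.05 without WT replicate 3 and 0.13 with the replicate block. MRPL44 had 63.0 and 79.1 RPKM in the deletion, against 107 and 79.3 RPKM in WT (-0.38), and MRPL36, MRPL33 and MRPL50 had -0.31, -0.35 and -0.21. Proteasome genes, whose products degrade tagged proteins, were higher in all 34 tested, but by a median of 0.10, with 0.19 in deletion replicate 2 and 0.02 in replicate 4. With the replicate block that median was -0.043. RPT3, for a proteasome ATPase, had 606 and 566 RPKM in the deletion and 535 and 529 RPKM in WT. PRE3, RPN11 and PUP3, for other subunits, had log2 changes of 0.13, 0.15 and 0.14. Intervals of all 4 hold 0.

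Amino acid biosynthesis genes were higher in 39 of 55 (70.9%), with a median of 0.13, at 0.04 in deletion replicate 2 and 0.22 in replicate 4. Both deletion libraries lay above both WT libraries for 15 of the 55 (27.3%), beside 18.3% of all genes. Median log2 changes of 0.00, -0.02, 0.03 and 0.02 were found for the oxidative phosphorylation, TCA and glyoxylate, heat shock and autophagy lists. Oxidative phosphorylation genes had 0.09 and -0.04 in deletion replicates 2 and 4, and the TCA and glyoxylate cycle genes had -0.04 and 0.03. Heat shock proteins and chaperones had 0.06 and -0.05, and autophagy genes 0.05 and 0.01. Of the 8 tested markers of haploid cells 6 were lower, with a median of -0.10, which came from deletion replicate 4 (-0.19) and not from replicate 2 (0.01).

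**Figure D4:**
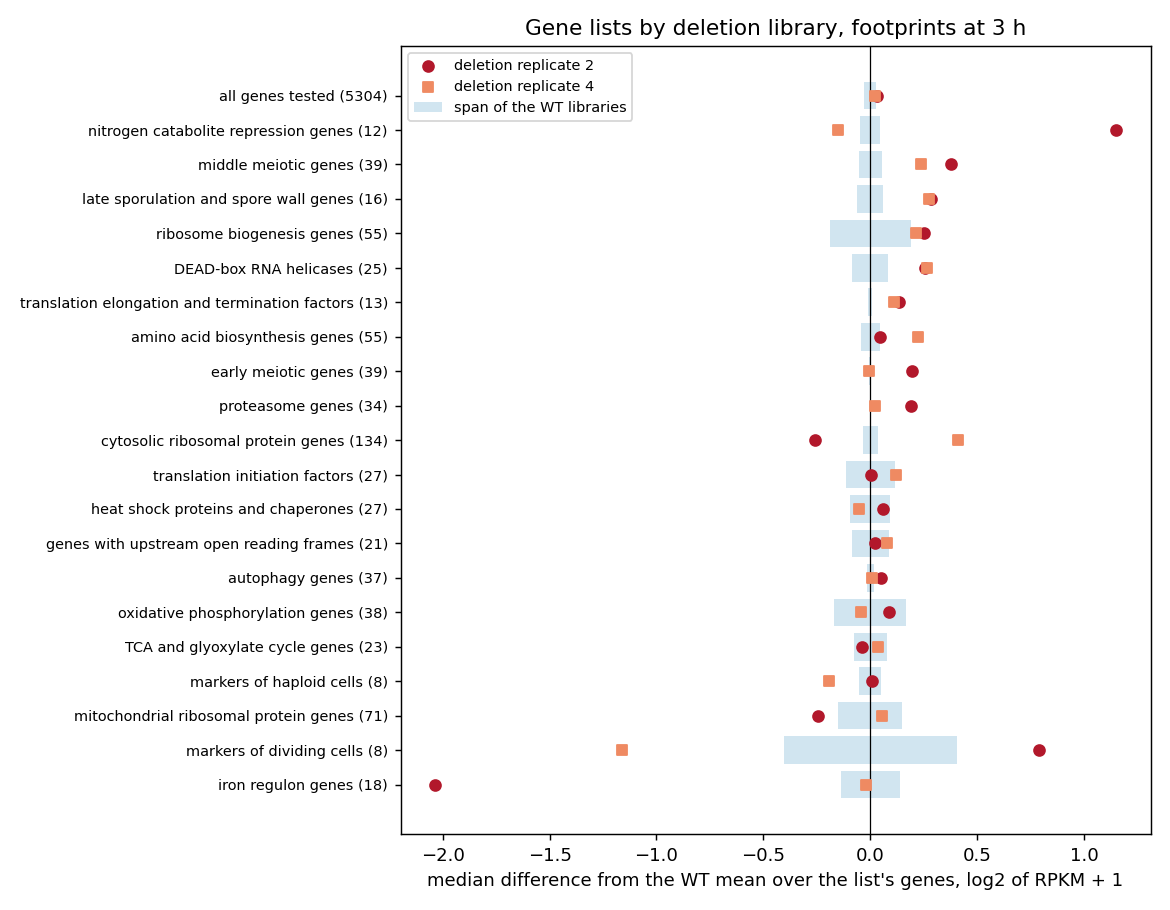
Median log2 difference from the WT mean over the tested genes of each list (number in brackets) in deletion replicate 2 (circles) and deletion replicate 4 (squares); the bar spans the WT libraries. Both deletion libraries lie above the WT span for middle, late, DEAD-box, elongation, biogenesis and proteasome genes and, at its edge, amino acid genes, and on opposite sides of it for cytosolic ribosomal proteins, nitrogen genes and markers of dividing cells.

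Among genes of at least 20 RPKM, the 5 with the widest gap between the deletion libraries were CRS5, FRE1, FIT1, FIT2 and YKL068W-A. CRS5, for a copper-binding metallothionein, had 105 RPKM in deletion replicate 2 and 3.79 RPKM in replicate 4, against 11.7 and 25.9 RPKM in WT. FIT1 and FIT2, for cell wall proteins that hold iron carriers, had 9.25 and 8.996 RPKM in deletion replicate 2 and 128 and 124 RPKM in replicate 4. Their WT values were 110 and 153 RPKM for FIT1 and 116 and 173 RPKM for FIT2. FRE1, for a surface reductase of iron and copper, had 8.32 and 141 RPKM in the deletion and 143 and 59.3 RPKM in WT, so that its WT libraries also stood apart. YKL068W-A, of unknown function, had 8.92 and 117 RPKM in the deletion, against 74.0 and 71.4 RPKM in WT.

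After these values were seen, a pair of lists was added, iron regulon genes and genes under nitrogen catabolite repression, which are therefore only described. Of the 18 iron genes tested of 22 listed, 18 were lower than the WT mean in deletion replicate 2, with a median log2 difference of -2.04, against -0.02 in replicate 4. Their median level was 21.02 and 138 RPKM in deletion replicates 2 and 4 and 141 and 168 RPKM in WT. SIT1, for a siderophore transporter, had 135 and 1044 RPKM in the deletion, against 933 and 1023 RPKM in WT. TIS11, for a protein that clears mRNAs of iron-using proteins when iron is short, had 23.4 and 272 RPKM in the deletion and 239 and 337 RPKM in WT. At 6 h the iron median was -1.23 in deletion replicate 2 and -0.06 in replicate 4, so the same replicate number was low at both times.

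Nitrogen genes stood the other way in deletion replicate 2 at 3 h, with 11 of 12 above the WT mean and a median of 1.15, against -0.15 in replicate 4. DAL5, for an allantoate permease, had 116 RPKM in deletion replicate 2 and 8.91 RPKM in replicate 4, against 13.5 and 10.8 RPKM in WT. MEP2, for an ammonium permease, had 262 and 37.2 RPKM in the deletion, against 46.0 and 37.3 RPKM in WT. GAP1, the general amino acid permease, had 702 and 184 RPKM in the deletion and 264 and 229 RPKM in WT. In each, replicate 4 lay near or below WT and replicate 2 far above. At 6 h the nitrogen medians were 0.08 and -0.24 in deletion replicates 2 and 4. Whether these differences come with the deletion, the culture or the library was not tested.

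**Figure D5:**
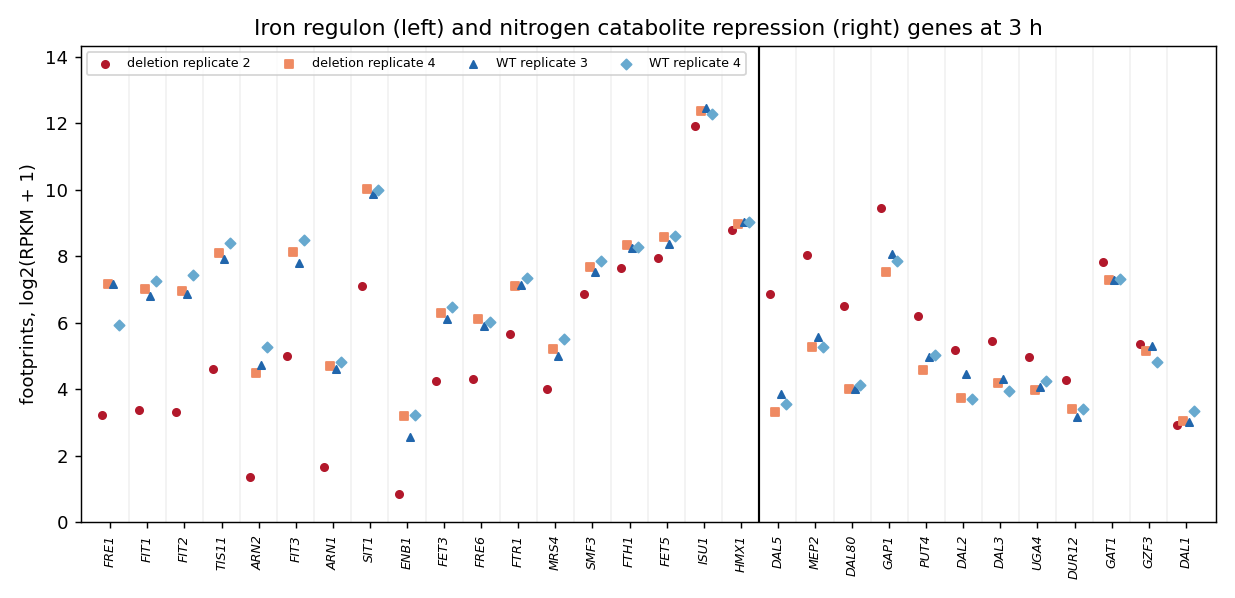
Footprint levels at 3 h, as log2 of RPKM plus 1, of 18 iron regulon genes (left) and 12 genes under nitrogen catabolite repression (right), each set ordered by the gap between the deletion libraries. Deletion replicate 2 (red circles) lies below the other 3 libraries in the iron genes and above them in most nitrogen genes, while deletion replicate 4 (orange squares) lies with WT.

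Markers of dividing cells split the libraries in another way, since WT also differed. The 13 markers summed to 224 and 72.1 RPKM in the deletion, against 168 and 104 RPKM in WT, with none at 0. DSE1, for a protein of daughter cell separation, had 69.9 and 11.4 RPKM in the deletion, against 43.8 and 20.2 RPKM in WT, and EGT2, of the same process, had 37.5 and 6.42 RPKM in the deletion, against 27.1 and 14.5 RPKM in WT. DSE1 and EGT2, chosen after their values were seen, were highest in deletion replicate 2 and lowest in deletion replicate 4. The cyclin genes of the list did not share that order: PCL1 had 7.55 and 8.74 RPKM in the deletion, against 7.84 and 13.7 RPKM in WT. CLN1 and CLN2, at 2.09 and 0.728 RPKM in deletion replicate 2, were also lowest there. Over the 8 markers tested, the median log2 difference from WT was 0.79 in deletion replicate 2 and -1.16 in replicate 4. Whether these markers reflect dividing cells in the cultures, and what part such cells have in the results above, was not tested.

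When deletion replicate 4 was left out, so that replicate 2 alone stood for the deletion, limma called 9 genes (Benjamini-Hochberg), 5 higher and 4 lower. That fit has a lone deletion library at 3 h, which is assumed to vary like the libraries of the other groups, so these calls rest on no spread of its own. Beside DBP1 and YPL119C-A these were MIN7, YCL048W-A, DAL5 and DAL80 on the higher side and ARN2, ICL1 and SER3 on the lower side. ICL1, for the glyoxylate enzyme isocitrate lyase, had 1072 RPKM in deletion replicate 2 and 3538 RPKM in replicate 4, against 2571 and 2908 RPKM in WT. SER3, for an enzyme of serine synthesis, had 51.8 and 162 RPKM in the deletion, against 137 and 162 RPKM in WT. In all 7 added genes replicate 4 lay within 1 log2 unit of the WT mean, and without replicate 2 the count was 2, namely DBP1 and YPL119C-A.

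Footprints of the same strains at 6 h gave a further view of the genes set apart at 3 h. Of the 969 genes above both WT libraries at 3 h, 124 were so at 6 h, which is 12.8% of them and 24.4% of the 509 genes above at 6 h (9.6% of all genes). Another 90 of the 969 were below both WT libraries at 6 h. Of the 526 genes below at 3 h, 107 were below at 6 h, which is 20.3% of them and 13.1% of the 814 genes below at 6 h (15.3% of all genes), and 33 were above. DBP1 and YPL119C-A had log2 changes of -6.69 and 3.70 at 6 h. The middle and late lists had medians of -0.08 and -0.10 at 6 h. When the effect of the deletion at 6 h was set against that at 3 h, 0 genes (0%) passed in limma. There were 75 at an unadjusted p under 0.05, and limma-voom on the recovered reads also called 0. LDS2, SPR3 and LDS1 had differences of -0.74, -0.69 and -0.67, all with a Benjamini-Hochberg adjusted p of 1.00 in limma. The higher level of these genes at 3 h is therefore not shown to differ from their change at 6 h.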

How the data were processed

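Sporulating SK1 cells were profiled, and fragments of 28 to 31 nt were kept as footprints, per the labels' protocols. The table the authors deposited holds RPKM, 1 column for each library. The submitters' processing notes name CASAVA, bcl2fastq 2.17 and Bowtie2. How reads were counted, with which strand setting and on which genome build, is not given in the sources used here. Overlapping, antisense and near-identical genes may therefore share reads. RefSeq R64 locus tags, matched for 5994 of 6679 IDs, served for names and neighbours.

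The deletion was tested against WT at 3 h with limma 3.58.1 (R 4.3.3; lmFit, contrasts.fit and eBayes with a trend) on log2(RPKM + 1), where changes of low genes come out too small. The filter was a mean of 5 RPKM in the 3 h footprint libraries. All 8 footprint libraries entered the fit as 4 group means, tests were two-sided, and Benjamini-Hochberg adjustment ran over all genes tested, with 0.05 as the threshold. This step was tested on simulated data with noise drawn separately for each gene, so lists of genes that move together within a library were not covered. For the 6083 genes with reads, the RPKM steps gave whole reads (tolerance 0.02 of a read, 100% of genes), and limma-voom on these reads called 2 genes. A floor of 3 reads covers counting error only, as PCR reads that carry no molecular identifier are not independent molecules.

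Genes were named by rule: DBP1, its neighbours and DED1; those past the threshold; in each direction the 10 of smallest p that do not overlap between genotypes and reach 20 RPKM; the 5 with the widest gap between the deletion libraries; and, for lists described, at most 4 members by p. Members and lists were chosen with earlier results of these data known. Alternatives were pseudocounts of 5 and 0.1 RPKM, no filter or one at 20 RPKM, median-ratio rescaling, the 3 h libraries alone, no trend, a replicate block, limma-voom and leaving out each library. Figures were drawn with matplotlib 3.10.9.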

Additional observations from a re-analysis of the deposited data

How the results depend on the processing

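DBP1 and YPL119C-A were the genes called at 3 h with a pseudocount of 5 or 0.1 RPKM, after rescaling, with the 3 h libraries alone, without the trend, with limma-voom and with the replicate block, 2 genes each time. With a filter at 20 RPKM 1 gene was called, since the mean of YPL119C-A is below that, and without a filter 3 were, the added one resting on 1 read in each deletion library. Leaving out 1 library at a time gave 2 to 9 genes, with 9 when deletion replicate 4 was out. For the difference between 6 h and 3 h, 1 gene was called with a pseudocount of 0.1 RPKM and 1 after rescaling, and 0 to 3 with 1 library left out. At 20 RPKM the share of genes moving the same way in the first disjoint pairing was 42.8%.

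At 3 h the strains share replicate number 4 alone, so the replicate block leans on 6 h as well, and no pairing check over 3 pairs was possible. The replicate block turned the log2 change of MRP51 (0.0027), CRS5 (-2.30), FRE1 (0.74), MRPL33 (0.0049), MRPL50 (0.0027) and RPN11 (-0.0055). It moved the medians of elongation factors (0.066), early genes (-0.049), TCA genes (0.099), heat shock genes (-0.15), mitochondrial ribosomal proteins (0.13) and proteasome genes (-0.043). The cause was not tested. The elongation median was 0.18 without a filter, 0.12 with one at 20 RPKM and 0.13 after rescaling, and the middle gene median was 0.14 at 20 RPKM.

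With 1 library left out, log2 changes crossed 0 for VPS30 (-0.27 to 0.029), CRS5 (-1.95 to 2.53), FRE1 (-3.32 to 0.61), YKL068W-A (-2.89 to 0.67), MAM1 (-0.043 to 0.47) and TIF4631 (-0.0045 to 0.32). Without WT replicate 3, CRS5 was at -0.25. List medians ranged as follows: DEAD-box helicases 0.084 to 0.39 (0.082 to 0.38 without the member shared with the biogenesis list), elongation factors 0.11 to 0.16, upstream frame genes -0.077 to 0.079, early genes -0.0058 to 0.20 and middle genes 0.21 to 0.38. They were -0.14 to 0.034 for TCA genes, -0.087 to 0.13 for heat shock genes, 0.045 to 0.22 for amino acid genes, -0.19 to 0.0069 for haploid markers and -0.14 to 0.19 for oxidative phosphorylation. They were -0.25 to 0.053 for mitochondrial ribosomal proteins, 0.022 to 0.19 for proteasome genes, -0.037 to 0.069 for autophagy genes and -0.15 to 1.15 for nitrogen genes.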
